A study of Homo sapiens with 6 samples.

Results

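The integrated stress response was described across polysome-associated RNA of 3 human breast cancer cell lines through 10 of its genes, found as rows of the authors' table by their symbols: ATF4, ATF5, DDIT3, PPP1R15A, PPP1R15B, EIF2AK3, EIF2AK4, TRIB3, ASNS and EIF2S1. All 10 were present among 30726 rows. The hypoxic cells had spent 8 hours at 1% O2 in a chamber and the normoxic cells were kept at 21% O2. Each condition was sampled once in SUM1315 (triple negative), once in SKBR3 (luminal, HER2+) and once in T47D (luminal A), all wild type, which gave 6 libraries, 3 hypoxic and 3 normoxic. Cycloheximide, which holds ribosomes on mRNA, was added to all cultures before lysis, and RNA was taken from the polysome part of sucrose gradients loaded with equal protein. The study asked how hypoxia changes which transcripts are translated. Whole-lysate RNA was not analysed here, so a value reports mRNA amount and ribosome loading together, and each line is a single cultured line that stands for no subtype.

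In the integrated stress response, kinases such as PERK (EIF2AK3) and GCN2 (EIF2AK4) phosphorylate the alpha subunit of the initiation factor eIF2 (EIF2S1). Phosphorylated eIF2 blocks its own exchange factor eIF2B, which lowers general initiation while some mRNAs with upstream open reading frames, among them ATF4, ATF5, DDIT3 and PPP1R15A, are translated better. ATF4 is a transcription activator of genes for amino acid supply and stress, including ASNS, TRIB3 and DDIT3, and the phosphatase subunits encoded by PPP1R15A and PPP1R15B remove the phosphate from eIF2. Severe oxygen shortage is known to activate PERK.

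Values are RPKM, reads per unit of transcript length and of library size, and are a share of the polysome RNA sequenced, so a lower RPKM cannot be told apart from a rise of other RNA, nor fewer cells with a transcript from less of it per cell. Between 9675 and 10842 genes per library reached 1 RPKM. At the depth read from the spacing of the values, 1 RPKM on 1 kb of transcript stood for 21.7 to 33.4 reads or read pairs. The line labels matched their markers: ERBB2 was at 743 and 615 RPKM in the hypoxic and normoxic SKBR3 libraries and at 5.34 to 8.76 RPKM in the other 4, ESR1 reached 4.54 and 5.18 RPKM in T47D and at most 0.0370 RPKM elsewhere, and VIM was at 1161 and 407 RPKM in SUM1315 and at most 9.17 RPKM elsewhere. Of the luminal markers, KRT8 was at 362 and 148 RPKM and KRT18 at 656 and 365 RPKM in the hypoxic and normoxic SKBR3 libraries. In SUM1315 both were at most 0.736 RPKM. The luminal marker CDH1, however, was at 0 and 0.0147 RPKM in SKBR3. The leukocyte markers PTPRC and CD3E and the endothelial marker PECAM1 stayed below 0.1 RPKM in all 6 libraries. COL1A1, a collagen gene used as a stromal marker, was at 119 and 91.7 RPKM in the hypoxic and normoxic SUM1315 libraries and at 0.525 to 2.34 RPKM in the other 4, and its part in the results was not tested. The oxygen label was checked on VEGFA, which had 5.51, 10.2 and 6.87 RPKM in the hypoxic SUM1315, SKBR3 and T47D libraries, against 1.98, 2.19 and 1.47 RPKM in the normoxic libraries of the same lines.

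Under hypoxia the 10 mRNAs did not move together. The mRNA of PPP1R15A, the inducible phosphatase subunit, rose by 1.53 to 2.22 times in the 3 lines, and that of the transcription factor ATF5 fell to 0.545 to 0.587 of its normoxic RPKM. The other 8 did not pass the test, among them ATF4 itself, which was higher in hypoxic SUM1315 and T47D and lower in hypoxic SKBR3. Each gene was tested on log2(RPKM + 1) with limma, with cell line as a block, and p-values were adjusted over all genes tested. A gene was tested where at least 3 libraries reached 1 RPKM, which all 10 did, and passed at an adjusted p under 0.05. Over the 10253 genes tested, 6.38% passed, of which the part that rose was 4.12% and the part that fell 2.26% of the genes tested, so that 1 rise and 1 fall among 10 genes are too few to set these genes apart from the background. By the sign of the log2 ratio, 3 genes (DDIT3, PPP1R15A and ASNS) were higher in all 3 lines, 2 (ATF5 and EIF2AK4) were lower in all 3 and 5 were mixed, where 23.5% and 25.2% of all genes tested had the same sign upward and downward in all lines.

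**Figure D1:**
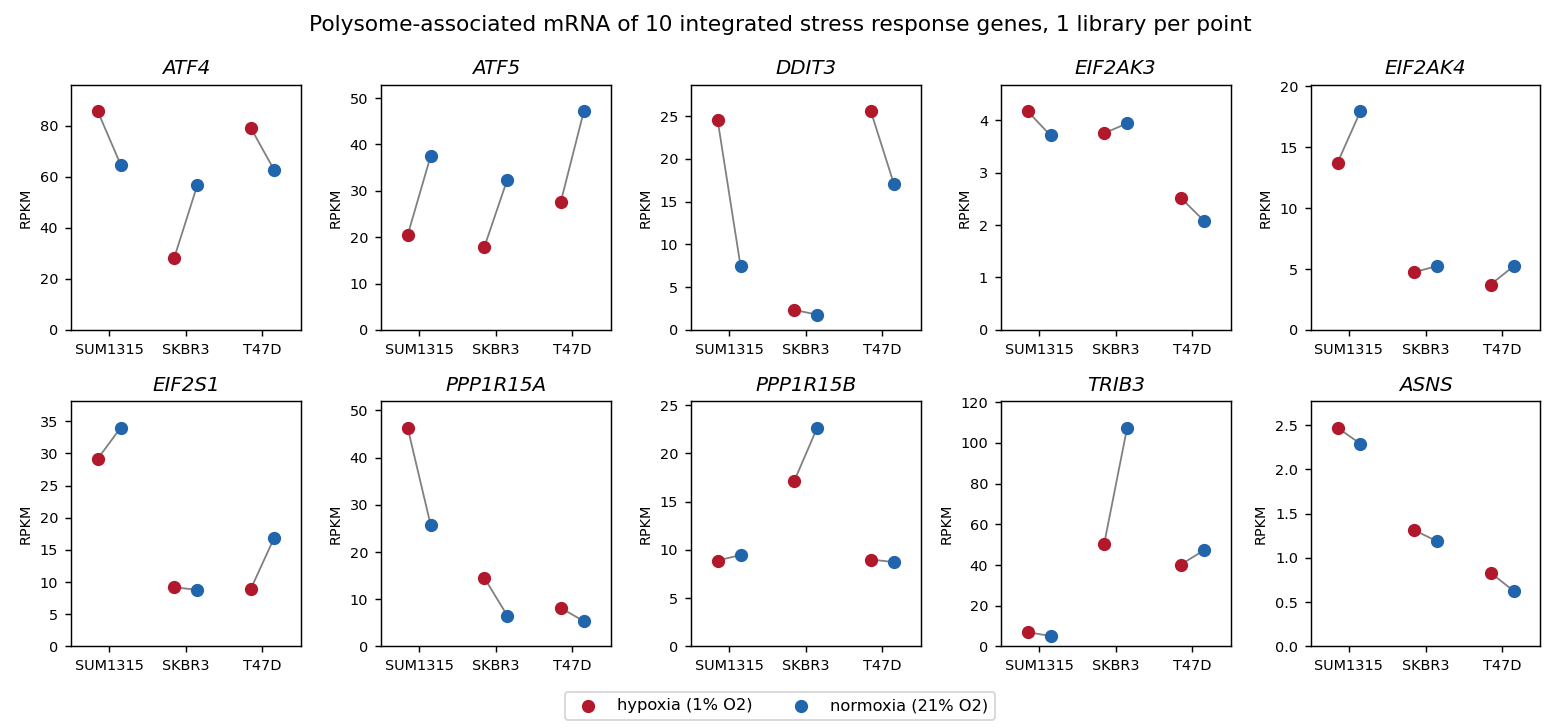
RPKM (vertical axes, linear from 0) of the 10 genes in hypoxic (red, left) and normoxic (blue, right) libraries of SUM1315, SKBR3 and T47D; each point is 1 library and grey lines join libraries of 1 line. ATF5 is lower and PPP1R15A higher in the hypoxic library of every line, while ATF4 reaches 85.6 and 79.0 RPKM in hypoxic SUM1315 and T47D and 28.3 RPKM in hypoxic SKBR3.

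Of the transcription factors, ATF4 (chromosome 22, 39519695 to 39522685, plus strand, GRCh38) was the most abundant of the 10 genes in SUM1315 and T47D. Its RPKM was 85.6 in SUM1315, 28.3 in SKBR3 and 79.0 in T47D under hypoxia, against 64.7, 56.7 and 62.8 in the normoxic libraries of those lines. The normoxic libraries thus lay close together (61.4 ± 4.20 RPKM, SD, n = 3) and the hypoxic ones spread on both sides of them (64.3 ± 31.4 RPKM, SD, n = 3). The hypoxic level was 1.32 times the normoxic one in SUM1315, 0.499 times in SKBR3 and 1.26 times in T47D. The 95% counting intervals of these ratios were 1.25 to 1.40, 0.466 to 0.535 and 1.19 to 1.33, which cover counting error only and say nothing of a second culture. Here and below, the limma SE and interval pool a gene's own spread between lines with the spread typical of genes at its level. For a gene with uneven lines they can be narrower than its own 3 lines would give. Across lines the log2 fold change was -0.08 ± 0.25 (SE, n = 3 lines, limma adjusted p = 0.85), with a 95% interval from -0.64 to 0.47. Without the SKBR3 pair it was 0.36 (adjusted p = 0.22, where the 12 alternative settings ranged from 0.22 to 1.00), so the sign of the average rests on that line.

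ATF5 (chromosome 19, 49928702 to 49933935, plus strand), a close relative of ATF4 known for its part in the mitochondrial stress response, was the member with the most even change. It had 20.4, 17.8 and 27.7 RPKM in hypoxic SUM1315, SKBR3 and T47D, against 37.5, 32.4 and 47.2 RPKM in normoxic SUM1315, SKBR3 and T47D. All 3 hypoxic values lay below all 3 normoxic ones, which was so for ATF5 alone of the 10 genes and for 3.96% of all genes tested in either direction. Its log2 fold change was -0.81 ± 0.14 (SE, n = 3 lines, limma adjusted p = 0.015), lower in 3 of 3 lines, with ratios on the log2 scale from -0.84 to -0.75. Of all genes tested, 99.6% had a fold change above that of ATF5. NUP62, a nuclear pore gene on the opposite strand, shares 21.2% of the exonic bases of ATF5 in GENCODE release 29, and the library kit and counting are not stated to keep strand, so reads there are uncertain. NUP62 itself had 11.2, 9.86 and 5.71 RPKM in hypoxic SUM1315, SKBR3 and T47D, against 15.04, 13.5 and 7.06 RPKM at normoxia (log2 fold change -0.36 ± 0.14, limma adjusted p = 0.14), and its part in the ATF5 value was not tested.

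DDIT3 (chromosome 12, 57516588 to 57521737, minus strand) encodes CHOP, a factor tied to cell death under lasting stress. It had 24.6 RPKM in SUM1315, 2.34 RPKM in SKBR3 and 25.6 RPKM in T47D under hypoxia, against 7.44, 1.78 and 17.1 RPKM in the same lines at normoxia. Every line was higher under hypoxia, by 3.30 times in SUM1315 (counting interval 2.73 to 3.98), 1.49 times in T47D (1.30 to 1.71) and 1.31 times in SKBR3 (0.898 to 1.91). In SKBR3, where only 52.1 to 68.9 reads were implied per library, a difference was not detectable at this depth. The log2 fold change of 0.80 ± 0.23 (SE, n = 3 lines) did not pass (limma adjusted p = 0.061), and it was as large as that of PPP1R15A with a wider spread between lines. Without the SKBR3 pair it was 1.08 and past the threshold (adjusted p = 0.035), and without the SUM1315 pair it was 0.41 (adjusted p = 0.26). These adjusted p-values are the lowest of the 12 alternative settings and the highest of the 10 that kept an expression filter, the main or the mean one, and the block. MARS1, a methionyl-tRNA synthetase gene on the opposite strand, overlaps 27.2% of the exonic bases of DDIT3. It had 6.40, 3.95 and 6.45 RPKM in hypoxic SUM1315, SKBR3 and T47D, against 8.96, 3.25 and 6.14 RPKM at normoxia, so that it was lower under hypoxia in SUM1315 and higher, like DDIT3, in SKBR3 and T47D. Its part in the DDIT3 value was not tested.

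The subunits that direct protein phosphatase 1 to eIF2 differed from each other. PPP1R15A (chromosome 19, 48872392 to 48876057, plus strand), also called GADD34, is the stress-induced subunit and closes the response as a feedback. It had 46.3, 14.5 and 8.16 RPKM in hypoxic SUM1315, SKBR3 and T47D, against 25.8, 6.56 and 5.34 RPKM in the normoxic libraries. It rose in 3 of 3 lines, by 1.80 times in SUM1315, 2.22 times in SKBR3 and 1.53 times in T47D, and its log2 fold change was 0.80 ± 0.15 (SE over 3 lines, limma adjusted p = 0.019). The groups overlap because the lines differ more than the oxygen levels: the highest normoxic value exceeded the hypoxic values of SKBR3 and T47D. PPP1R15B (chromosome 1, 204403387 to 204411791, minus strand), the constitutive subunit CReP, had 8.91, 17.1 and 9.01 RPKM under hypoxia and 9.47, 22.7 and 8.74 RPKM at normoxia in the same order of lines. Its log2 fold change was -0.14 ± 0.15 (limma adjusted p = 0.56), with SKBR3 the line that differed most, at 0.756 of its normoxic RPKM (counting interval 0.719 to 0.795).

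Neither kinase mRNA passed the test. EIF2AK3 (chromosome 2, 88556741 to 88627576, minus strand), which encodes the endoplasmic reticulum kinase PERK, had 4.17, 3.75 and 2.52 RPKM in hypoxic SUM1315, SKBR3 and T47D, against 3.71, 3.94 and 2.08 RPKM at normoxia. Its log2 fold change was 0.09 ± 0.13 (limma adjusted p = 0.68), with a 95% interval from -0.19 to 0.37. EIF2AK4 (chromosome 15, 39934146 to 40035591, plus strand), the amino acid sensor GCN2, had 13.7, 4.75 and 3.73 RPKM under hypoxia and 18.0, 5.24 and 5.24 RPKM at normoxia. It was lower in the hypoxic library of all 3 lines, at 0.764 of the normoxic level in SUM1315 (counting interval 0.638 to 0.916), 0.905 in SKBR3 (0.689 to 1.19) and 0.712 in T47D (0.509 to 0.994). These intervals take the shortest coding transcript of EIF2AK4, 687 bases against 5499 for the longest, and so are the widest. In hypoxic and normoxic SKBR3 the shortest implies 90.1 and 120 reads and the longest 721 and 964. The log2 fold change of EIF2AK4, -0.29 ± 0.14, did not pass (limma adjusted p = 0.21), with a 95% interval from -0.60 to 0.012.

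EIF2S1 (chromosome 14, 67359997 to 67386516, plus strand), which encodes the eIF2 subunit that these kinases phosphorylate, had 29.1, 9.18 and 8.96 RPKM in hypoxic SUM1315, SKBR3 and T47D, against 34.0, 8.80 and 16.8 RPKM at normoxia. The hypoxic T47D library stood at 0.534 of its normoxic level (counting interval 0.478 to 0.596), whereas SUM1315 was at 0.858 and SKBR3 at 1.04. The log2 fold change was -0.33 ± 0.18 (limma adjusted p = 0.28). Phosphorylation of the protein is not measured by these data.

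The targets TRIB3 and ASNS also failed to pass. TRIB3 (chromosome 20, 362835 to 397559, plus strand) is a pseudokinase that is induced by ATF4 and restrains it. It had 7.03, 50.4 and 40.2 RPKM in hypoxic SUM1315, SKBR3 and T47D, against 5.14, 107 and 47.2 RPKM at normoxia. Its hypoxic level was thus 1.37 times the normoxic one in SUM1315, 0.469 times in SKBR3 and 0.852 times in T47D, none of the 3 counting intervals including 1. The log2 fold change was -0.31 ± 0.24 (limma adjusted p = 0.43) and 0.080 without the SKBR3 pair (adjusted p = 0.82, within a range of 0.11 to 1.00 over the 12 alternatives). Like ATF4, TRIB3 was higher in hypoxic SUM1315 and lower in hypoxic SKBR3, and with 1 library per line and oxygen level that gap was not tested.

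ASNS (chromosome 7, 97852118 to 97872542, minus strand) encodes asparagine synthetase. It was the least abundant of the 10 genes, at 2.47, 1.31 and 0.831 RPKM in hypoxic SUM1315, SKBR3 and T47D, against 2.29, 1.19 and 0.627 RPKM at normoxia. Each line was slightly higher under hypoxia, but the log2 fold change was 0.11 ± 0.11 (limma adjusted p = 0.55) and every line's counting interval included 1, from 24.01 to 128 implied reads per library. The noncoding gene AC079781.5 on the same strand covers 44.6% of the exonic bases of ASNS, so reads could be divided between them. It was listed at 1.59, 1.28 and 0.492 RPKM under hypoxia and at 0.703, 0.581 and 0.0799 RPKM at normoxia in the same order of lines.

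**Figure D2:**
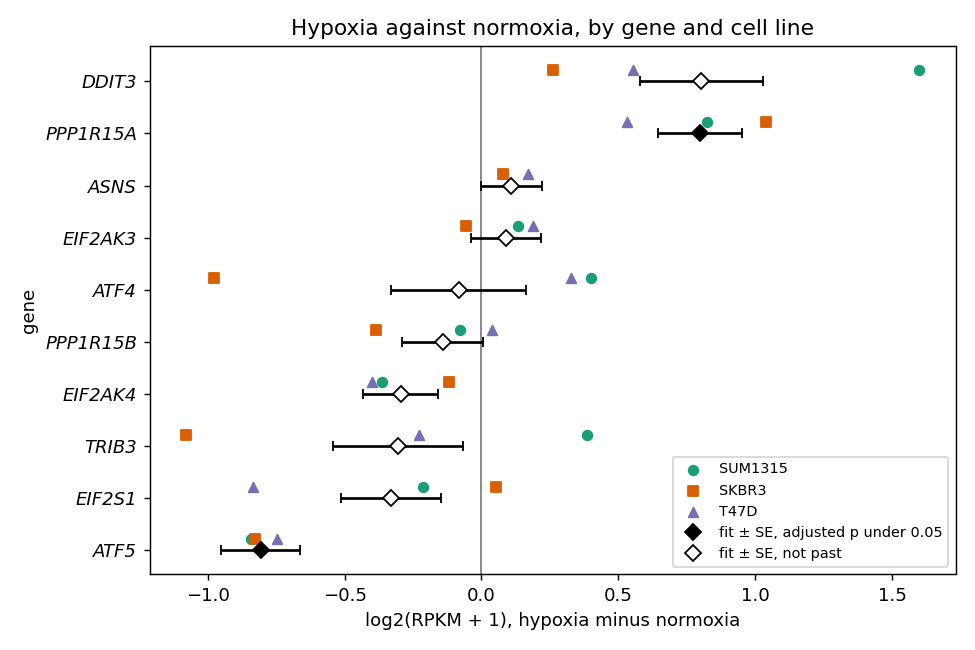
Difference in log2(RPKM + 1), hypoxia minus normoxia (horizontal axis), for each gene: diamonds are the limma estimate with its SE over 3 lines, filled where the adjusted p is under 0.05, and coloured marks are the 3 lines. The lines of ATF5 lie between -0.84 and -0.75, while those of ATF4 run from -0.98 in SKBR3 to 0.40 in SUM1315.

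Among 8 transcription factors of the response, SKBR3 stood apart from the other lines in direction. In SKBR3, 7 of the 8 had a log2 ratio below 0 (median -0.52), against 2 of 8 in SUM1315 (median 0.36) and 2 of 8 in T47D (median 0.33). Of all genes tested, 56.1% were below 0 in SKBR3, 49.1% in SUM1315 and 46.8% in T47D. Of the 7, ATF3 (-0.036) and CEBPB (-0.086) lay near the SKBR3 median of all genes tested, -0.048. The target lists described below did not share the direction to that degree. In SKBR3, 4 of 8 genes of amino acid synthesis, 3 of 7 transporters, 5 of 12 stress and signalling targets and 2 of 12 tRNA synthetases were below 0. Besides ATF4 and ATF5, the ratio in SKBR3 was lowest for CEBPG, a partner of ATF4 at its target sites, with 8.08 RPKM under hypoxia and 14.2 RPKM at normoxia, and for the stress regulator NUPR1, with 8.72 and 14.7 RPKM. In T47D, NUPR1 went the other way, with 52.1 RPKM under hypoxia and 37.1 RPKM at normoxia. ATF3, a stress-induced repressor, had 4.63 and 12.1 RPKM in hypoxic SUM1315 and T47D, against 2.67 and 7.23 RPKM at normoxia, and 8.84 against 9.08 RPKM in SKBR3. Each ratio compares 1 library with 1 library, so these differences between lines were not tested.

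**Figure D3:**
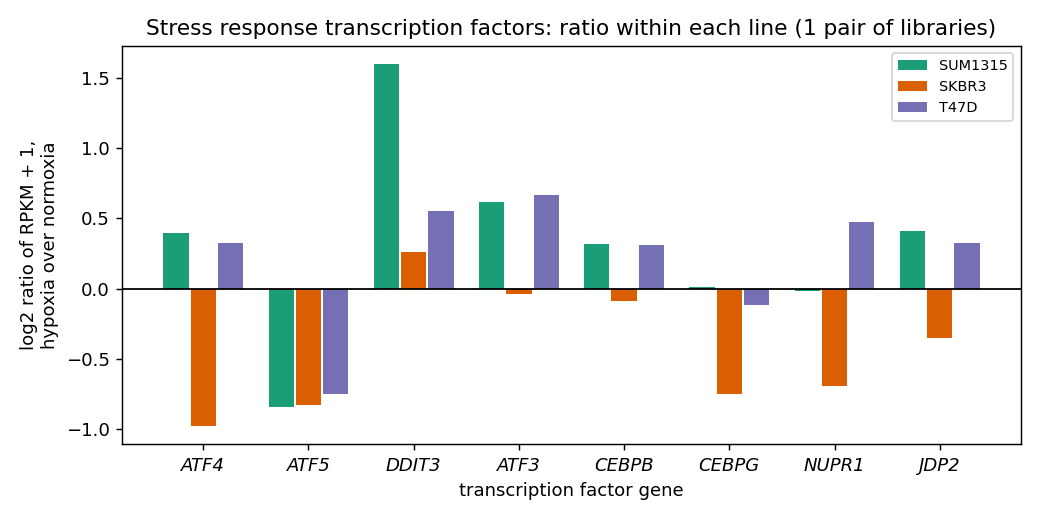
Log2 ratio of RPKM + 1, hypoxia over normoxia (vertical axis), of 8 stress response transcription factor genes in SUM1315 (green), SKBR3 (orange) and T47D (purple); each bar is 1 pair of libraries. Bars of SKBR3 lie below 0 for 7 of the 8 genes, DDIT3 being the exception, and ATF5 lies below 0 in all 3 lines.

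The other genes of the pathway were read from 10 lists, with 79 of 86 distinct genes tested. Of these, 7 rose (8.86%, against 4.12% of all genes) and 2 fell (2.53%, against 2.26%), and the median log2 fold change was -0.0019, against -0.0067 for all genes tested. The lists were chosen with earlier results of these data known, and the 7 include VEGFA, used above to check the oxygen label. The shares are therefore a description and not a test. Besides PPP1R15A and ATF5, the genes that passed were SHMT2, DDIT4, VEGFA, ERO1A, BBC3 and EPRS1, which rose, and YARS1, which fell. DDIT4, VEGFA and ERO1A are targets of ATF4 or CHOP that are also well known targets of hypoxia-inducible factors, and BBC3, the apoptosis gene PUMA, is also a p53 target.

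No kinase passed among 4 (median -0.05, limma; none had an unadjusted p under 0.05). EIF2AK1, the heme-regulated kinase HRI, was the most abundant, at 45.4, 139 and 110 RPKM in hypoxic SUM1315, SKBR3 and T47D, against 41.7, 117 and 96.5 RPKM at normoxia (log2 fold change 0.19 ± 0.15, adjusted p = 0.45). Of 8 subunits of eIF2 and its exchange factor eIF2B, 7 had a fold change below 0 (median -0.26), against 5211 of all 10253 genes tested. None of the 8 passed with limma. An unadjusted p under 0.05 was reached by 2 of them, and by 2692 of all 10253 genes tested. The 2 were EIF2B2 (-0.53 ± 0.16, adjusted p = 0.072) and EIF2B1 (-0.46 ± 0.15, adjusted p = 0.087). In SUM1315 and T47D 7 of the 8 were lower under hypoxia, and in SKBR3 3 of the 8.

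Among 9 regulators of eIF2 phosphorylation PPP1R15A alone rose and none fell (median -0.14, or -0.020 without the SKBR3 pair). The catalytic subunit gene PPP1CC was lowest, at -0.48 ± 0.17 (adjusted p = 0.11). Of the 7 tested mRNAs among 8 described as translated through upstream open reading frames when eIF2 is phosphorylated, 2 rose and 1 fell. The shares over all genes tested were 4.12% and 2.26%, and counts this small do not set the list apart. The median of the list was -0.02 across lines and 0.36 without the SKBR3 pair, and its medians within SUM1315, SKBR3 and T47D were 0.40, 0.22 and 0.33. The rises were PPP1R15A and EPRS1, a bifunctional tRNA synthetase, and the fall was ATF5.

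Of 8 tested genes of amino acid synthesis, SHMT2, a mitochondrial serine hydroxymethyltransferase, alone rose (median of the list -0.06). It had 17.5, 25.2 and 27.9 RPKM in hypoxic SUM1315, SKBR3 and T47D, against 13.0, 12.6 and 12.9 RPKM at normoxia, so that the groups did not overlap, and its log2 fold change was 0.80 ± 0.17 (limma adjusted p = 0.025). SHMT2 passed in 8 of the 12 alternatives (adjusted p 0.0040 to 1.00) and not when SKBR3 (0.059) or T47D (0.10) was left out. PSAT1, of the serine pathway that also feeds SHMT2, was lowest at -0.46 ± 0.13 (adjusted p = 0.065). None of 7 tested amino acid transporters passed with limma (median 0.08), and 2 had an unadjusted p under 0.05, as had 2692 of all 10253 genes tested. The highest was the glutamine transporter SLC38A2, with 38.2, 5.80 and 13.3 RPKM under hypoxia and 22.6, 4.52 and 7.81 RPKM at normoxia (0.58 ± 0.15, adjusted p = 0.050, just above the threshold).

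The stress and signalling targets held most of the rises, with 4 of 12 tested genes higher, none lower and a median of 0.52. Without the SUM1315 pair the median was 0.10. Over all genes tested 4.12% rose and the median was -0.0067. The 4 include DDIT4, VEGFA and ERO1A, named above as known targets of hypoxia-inducible factors too, so the count is a description only. DDIT4, an inhibitor of mTORC1, rose by 3.60 ± 0.17 (limma adjusted p = 1.05e-05) and VEGFA by 1.54 ± 0.16. BBC3 had 3.42, 5.70 and 4.45 RPKM in hypoxic SUM1315, SKBR3 and T47D, against 1.48, 2.83 and 2.04 RPKM at normoxia (0.83 ± 0.12, limma adjusted p = 0.0069). ERO1A, an endoplasmic reticulum oxidase, rose by 0.75 ± 0.18 (adjusted p = 0.041), and passed in 5 of the 12 alternatives (adjusted p 0.018 to 1.00), not when SKBR3 was left out (0.11). TRIB3 was the lowest of the list. CHAC1, a glutathione-degrading enzyme and ATF4 target, was higher in hypoxic SUM1315 and T47D and lower in hypoxic SKBR3, at 11.2, 0.723 and 1.34 RPKM in hypoxic SUM1315, SKBR3 and T47D, against 6.61, 2.11 and 1.25 RPKM at normoxia (-0.04 ± 0.23, adjusted p = 0.93), and was named after its values were seen.

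Of 12 cytosolic tRNA synthetases, EPRS1 rose and YARS1 fell (median 0.16), where 4.12% of all genes tested rose and 2.26% fell. EPRS1 had 9.21, 12.4 and 7.90 RPKM in hypoxic SUM1315, SKBR3 and T47D, against 4.42, 5.84 and 4.21 RPKM at normoxia (0.89 ± 0.13, limma adjusted p = 0.0081). YARS1, the tyrosine enzyme, had 17.5, 4.01 and 4.00 RPKM under hypoxia and 29.5, 5.25 and 8.97 RPKM at normoxia (-0.68 ± 0.16, adjusted p = 0.037), and it passed in 6 of the 12 alternatives (adjusted p 0.024 to 1.00), not when T47D was left out (0.19). None of 9 tested genes of the other arms of the unfolded protein response passed with limma. An unadjusted p under 0.05 was reached by 3 of the 9, and by 2692 of all 10253 genes tested. The median of this list was -0.0019 across lines, 0.25 without SKBR3 and 0.16 without T47D, and within SUM1315, SKBR3 and T47D it was 0.50, 0.12 and 0.011. The chaperone HSPA5 was highest, at 88.5, 21.2 and 35.8 RPKM in hypoxic SUM1315, SKBR3 and T47D, against 33.6, 19.4 and 20.7 RPKM at normoxia (0.75 ± 0.22, adjusted p = 0.066).

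**Figure D4:**
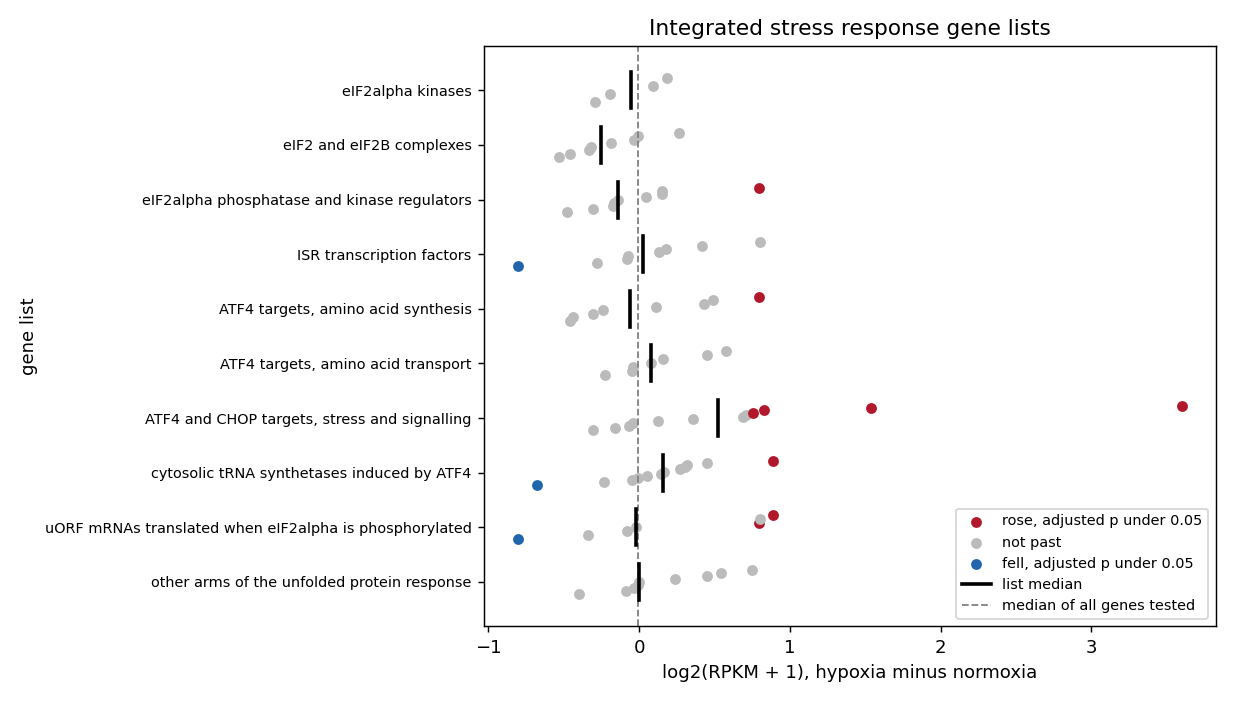
Log2 fold change, hypoxia minus normoxia, on log2(RPKM + 1) (horizontal axis) of each tested gene in 10 lists, red where it rose, blue where it fell and grey where it did not pass; black bars are list medians and the dashed line is the median of all genes tested. The list of stress and signalling targets has the highest median, 0.52, and holds DDIT4 at 3.60 and VEGFA at 1.54.

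The levels of most members differed between lines, ATF5 being the one whose oxygen difference (-0.81) was larger in size than each of its differences between lines (0.20, -0.37 and -0.57). In the same limma fit, 22 of 30 comparisons of a member between 2 lines passed, 8 of 10 for SUM1315 against SKBR3, 6 of 10 for SUM1315 against T47D and 8 of 10 for SKBR3 against T47D. Of all genes tested, 69.8%, 69.2% and 57.9% passed in these comparisons, so the members differed between lines about as often as other genes did. Each line is represented by its 2 libraries. The spread behind these tests is that of the lines around a common oxygen effect, pooled with the spread typical of genes at the same level.

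TRIB3 differed most. Its level was lower in SUM1315 than in SKBR3 (log2 difference -3.41 ± 0.29, adjusted p = 3.52e-06) and than in T47D (-2.67 ± 0.29, adjusted p = 2.21e-05). SKBR3 lay above T47D at the edge of the threshold (0.74 ± 0.29, adjusted p = 0.0499). PPP1R15A had the order SUM1315, SKBR3, T47D, with 1.72 ± 0.19 between SUM1315 and SKBR3 (adjusted p = 2.07e-05) and 0.51 ± 0.19 between SKBR3 and T47D (adjusted p = 0.040). PPP1R15B was highest in SKBR3, by 1.07 ± 0.18 over T47D (adjusted p = 0.00066), while SUM1315 and T47D did not differ beyond their spread (0.04 ± 0.18, adjusted p = 0.84).

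DDIT3 was lowest in SKBR3, by 2.27 ± 0.28 below SUM1315 (adjusted p = 4.44e-05), and T47D and SUM1315 did not differ beyond their spread (adjusted p = 0.085). ATF4 was also lower in SKBR3 than in SUM1315 (SUM1315 minus SKBR3 0.88 ± 0.30, adjusted p = 0.025) and than in T47D (SKBR3 minus T47D -0.80 ± 0.30, adjusted p = 0.044), a gap that its normoxic libraries, at 56.7 RPKM in SKBR3 against 64.7 and 62.8 RPKM, showed only in small part. ATF5 was higher in T47D than in SKBR3 (SKBR3 minus T47D -0.57 ± 0.18, adjusted p = 0.019), and SUM1315 did not differ from either beyond its spread. EIF2AK4 and EIF2S1 were higher in SUM1315 than in both other lines, which did not differ from each other beyond their spread (adjusted p = 0.49 and 0.14). EIF2AK3 was lower in T47D than in both other lines, and ASNS fell in the order SUM1315, SKBR3, T47D with each step past the threshold.

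**Figure D5:**
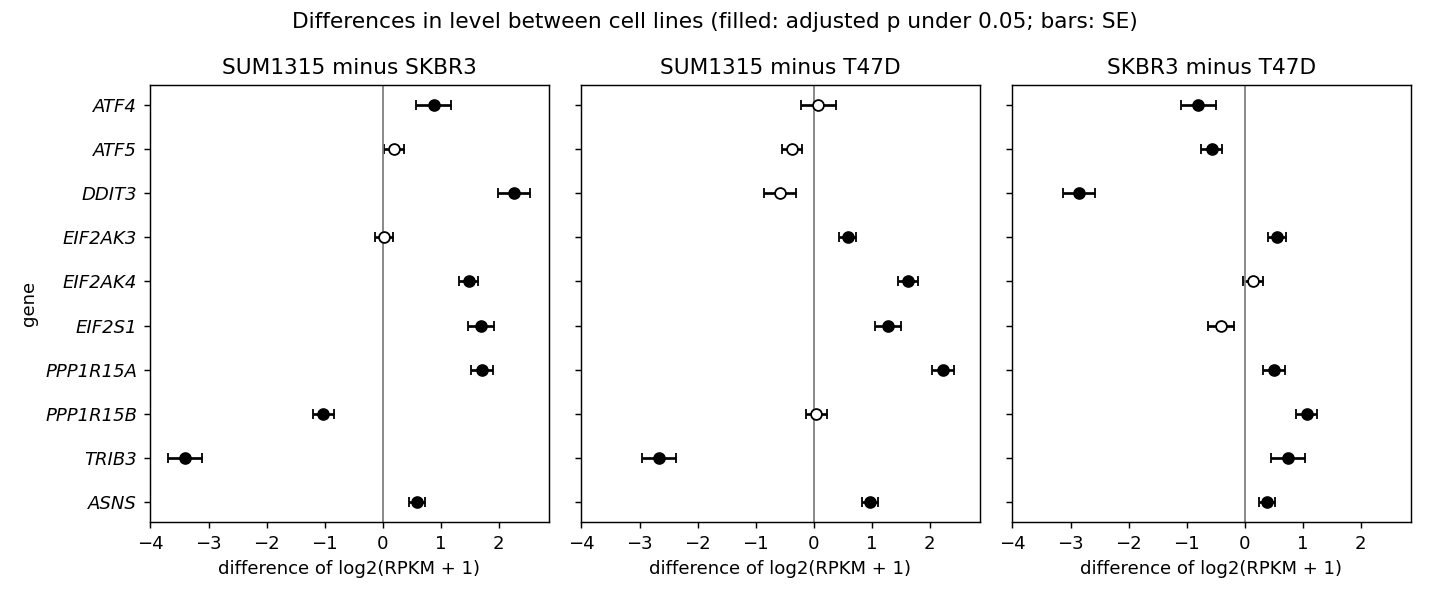
Difference in log2(RPKM + 1) between cell lines (horizontal axes; 3 panels, 1 per pair of lines) for the 10 genes, with SE from the limma fit; filled points have an adjusted p under 0.05. TRIB3 lies at -3.41 and -2.67 in the comparisons of SUM1315 with SKBR3 and T47D, and DDIT3 at -2.85 in SKBR3 minus T47D.

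Promoter sequence was looked at because ATF4 and its partners bind a C/EBP-ATF response element with the core TGATGNAA, and hypoxia-inducible factors bind ACGTG. RefSeq promoter windows (GRCh38.p14) were matched for all 10 genes, and the 250 bases before each start site were searched on both strands. TGATGNAA was found for 2 of the 10 genes, ASNS and PPP1R15B, where 3.89% of 27305 genes with a window hold it. ACGTG was found for ATF4 alone, where 21.7% of genes hold it. The ASNS match, 68 bases before the start site, lies in the promoter of a textbook ATF4 target. Neither ASNS nor PPP1R15B passed the test, and PPP1R15A, which rose, had no match to either string as searched. Only the exact letters ACGTG were searched, so variants such as GCGTG were not counted. On either strand GCGTG stands in the PPP1R15A window, and also in windows of ASNS, PPP1R15B, DDIT3, TRIB3 and EIF2AK4. Its share over all genes was not counted. A link between these motifs and the changes under hypoxia was not tested. A match is a description of letters and not of binding. The 4 windows follow, 5′ to 3′ on the gene's strand, with motif matches in capitals: chr7:97872409-97872658 (minus strand) for ASNS, chr1:204411818-204412067 (minus strand) for PPP1R15B, chr22:39520309-39520558 (plus strand) for ATF4 and chr19:48872171-48872420 (plus strand) for PPP1R15A. In ATF4 the capitals are 2 overlapping matches to ACGTG, 1 on each strand.
ASNS: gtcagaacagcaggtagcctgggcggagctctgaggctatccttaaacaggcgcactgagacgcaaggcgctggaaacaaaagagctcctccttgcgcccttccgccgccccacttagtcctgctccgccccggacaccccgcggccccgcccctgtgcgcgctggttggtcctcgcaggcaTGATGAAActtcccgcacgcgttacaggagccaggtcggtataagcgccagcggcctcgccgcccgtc
PPP1R15B: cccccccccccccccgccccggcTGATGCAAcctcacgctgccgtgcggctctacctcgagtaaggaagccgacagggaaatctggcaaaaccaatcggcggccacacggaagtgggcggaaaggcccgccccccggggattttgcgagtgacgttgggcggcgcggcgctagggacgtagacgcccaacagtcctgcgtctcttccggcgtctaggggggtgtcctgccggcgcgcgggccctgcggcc
ATF4: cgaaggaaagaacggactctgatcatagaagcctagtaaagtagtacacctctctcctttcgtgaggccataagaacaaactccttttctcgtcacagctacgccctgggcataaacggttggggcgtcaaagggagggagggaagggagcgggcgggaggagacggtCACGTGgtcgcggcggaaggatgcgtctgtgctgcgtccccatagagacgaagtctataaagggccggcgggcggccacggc
PPP1R15A: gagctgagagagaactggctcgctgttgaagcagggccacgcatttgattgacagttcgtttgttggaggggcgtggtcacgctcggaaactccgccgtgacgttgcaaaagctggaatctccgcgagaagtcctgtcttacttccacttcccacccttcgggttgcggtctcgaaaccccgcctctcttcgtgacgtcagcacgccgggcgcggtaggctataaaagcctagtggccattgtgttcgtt

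The genes whose levels were most like those of 4 members over the 6 libraries were taken by the Pearson correlation of log2(RPKM + 1), as a description, since libraries of 1 line share most of their pattern. For ATF4 they were TAX1BP3 (r = 0.98), the ribosomal protein gene RPS20 (0.98) and USF3 (0.97). RPS20 had 93.2, 24.7 and 82.2 RPKM in hypoxic SUM1315, SKBR3 and T47D, against 82.1, 67.8 and 71.3 RPKM at normoxia, and like ATF4 was lowest in hypoxic SKBR3. For ATF5 they were CDC123 (0.99), an assembly factor of eIF2, HPS3 (0.98) and DERL2 (0.97), which acts in endoplasmic reticulum degradation. CDC123 had 80.9, 80.7 and 90.6 RPKM under hypoxia and 109, 103 and 122 RPKM at normoxia in the same order of lines (-0.40 ± 0.15, limma adjusted p = 0.12). For DDIT3 they were KCNMB4, CELSR3 and POLL (0.998, 0.996 and 0.993), and for ASNS they included CLIP2 and DEAF1 (0.9997 and 0.998). Among the members themselves ASNS and PPP1R15A had the highest correlation over the 6 libraries (0.94), and DDIT3 and PPP1R15B the lowest (-0.92).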

How the data were processed

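Polysome-associated RNA of 3 cell lines at 1% and 21% O2 was used as 1 deposited table of 30726 gene symbols by 6 libraries, with all 6 columns mapped by the submitters' descriptions. The table names no unit. The deposited values were read as RPKM made by the authors, because the products of value and transcript length were multiples of a library-specific unit, the worth of a single read (tolerance 0.02 of that unit, 4% by chance) in 63.4% to 67.1% of 3402 to 3767 single-transcript GENCODE release 29 genes. That unit gives reads or read pairs per RPKM, and counting intervals from it (95%, shortest coding transcript) cover counting error only. A count of 3 stands for 0.0897 to 0.138 RPKM at 1 kb. Per the submitters' processing notes, the tools were HISAT2, Trimmomatic, Partek and SAMtools, with GRCh38 or hg38 as build. The annotation, strand setting and versions were not given in the sources used here.

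In all, 10253 genes that reached 1 RPKM in 3 libraries were tested with limma 3.58.1 (R 4.3.3) after a log2(RPKM + 1) transform, with oxygen level and cell line as terms, a mean-variance trend, two-sided, Benjamini-Hochberg adjusted p under 0.05. This scale understates changes of low genes. The line pairs the libraries by the labels: after subtracting the mean of each oxygen level, both libraries of a line correlated across genes at 0.97, 0.94 and 0.94 in SUM1315, SKBR3 and T47D. Lines are the only replication. The spread behind the p-values is that between these lines (2 residual degrees of freedom) pooled with that typical of genes at the same level (8.02 prior). The pooled part from other genes carries most of the weight. The fit was tested on simulated data. The members and lists were chosen with earlier results of these data known. All members are named, of each list the genes past the threshold and its highest and lowest where described, and for 4 members the 3 most correlated genes, of which 1 is not reported here. Alternatives were other pseudocounts, filters, scalings and limma options, each line left out, and no block.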

Additional observations from a re-analysis of the deposited data

Results flagged for a closer look

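The members whose lines had log2 ratios of RPKM + 1, hypoxia over normoxia, on both sides of 0 are given here, and the difference between lines was not tested, since each line had 1 library per oxygen level. ATF4 had 0.40 in SUM1315, -0.98 in SKBR3 and 0.33 in T47D. TRIB3 had 0.39, -1.08 and -0.23 in that order. EIF2S1 had -0.21, 0.055 and -0.84. PPP1R15B had -0.080, -0.38 and 0.039. EIF2AK3 had 0.14, -0.056 and 0.19, and its counting intervals in SUM1315 and SKBR3 included no change, as did those of EIF2S1 in SKBR3 and of PPP1R15B in SUM1315 and T47D.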

How the results depend on the processing

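Of the 10 genes, ATF5 and PPP1R15A passed the limma threshold in 10 of 12 alternative settings each (adjusted p 0.011 to 0.036 and 0.015 to 0.046 there). They were not past it without the expression filter (0.40 and 0.41) or with no replicate block for cell line (1.00 each). The 10 include the fits with a line left out, whose p-values rest mostly on the spread typical of other genes. Without SUM1315 the SE of PPP1R15A rose from 0.15 to 0.22, while its limma adjusted p went from 0.019 to 0.015. Passing in those fits therefore says little beyond the size of the fold change. With no replicate block, 0 genes of all tested were higher and 0 lower, 0 and 0 members, and 0 and 0 pathway genes (68 genes at an unadjusted p under 0.05). With no expression filter these counts were likewise 0 (2715 of 27552 genes at an unadjusted p under 0.05). The cause was not tested. Over all genes, 422 higher and 232 lower became 171 and 72 with a pseudocount of 5, 126 lower with a mean of 1 RPKM as the filter and 143 lower with median-ratio scaling. With a line left out, higher genes ranged from 179 to 552 and lower genes from 53 to 271, both lowest without T47D. Members higher ranged from 1 to 2 (2 without SKBR3, DDIT3 being added at 1.08), pathway genes higher from 6 to 9 and lower from 1 to 2 (1 without T47D). Pathway genes lower were also 1 with a pseudocount of 5, with the mean filter and with median-ratio scaling. The median of the tRNA synthetases was 0.070 with a pseudocount of 5. Without SKBR3 the log2 fold changes of ATF4 and TRIB3 changed sign, to 0.36 and 0.080. Leaving out each line gave -0.33 to 0.36 for ATF4 and -0.65 to 0.080 for TRIB3. In levels between lines, members higher in SKBR3 than in T47D were 5, but 2 with a pseudocount of 5 and with no filter and 3 without a trend, and members lower in SUM1315 than in T47D were 1, but 2 with no filter and 3 with median-ratio scaling. These comparisons were not run with a line left out. ASNS, at 24.01 to 128 implied reads per library, and DDIT3 in SKBR3 are limited by depth.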
